A study of Mus musculus with 8 samples.

Results

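Type I interferon-stimulated genes are the genes that cells switch on when alpha or beta interferon reaches them, and their levels were followed here in Th1 and Th17 cells, 2 subsets of mouse helper T lymphocytes, with and without the DNA demethylating enzyme Tet2. The set was a list of 38 symbols, and a member was measured where a probe set of the array carried its symbol and no other. This gave 36 of the 19938 genes in the table, each with 1 probe set. Isg15 and Ifi44 had no probe set under their symbol alone and were not analysed here. Total RNA was hybridised to an Affymetrix whole-transcript array, with 2 arrays for each of 4 groups. Wild-type cells, Th1 or Th17, came from Tet2(f/f) mice, and Tet2-deficient cells of the same subsets came from CD2(Cre)Tet2(f/f) mice, so all groups shared the floxed allele. The CD2 promoter drives Cre in lymphocytes, hence the deletion is not limited to T helper cells. Age, sex, culture conditions and the deleted exons are not given in the sources used here. The 2 arrays of a group are labelled biological replicates, and p-values measure the spread between such arrays.

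As background, type I interferon binds the Ifnar1 and Ifnar2 receptor chains, whose kinases Jak1 and Tyk2 activate Stat2. With Irf9 it takes part in a complex that binds interferon-stimulated response elements in promoters, and its targets include sensors of foreign RNA and DNA, enzymes that degrade or block viral RNA, and feedback inhibitors of the receptor. Interferon-gamma, the hallmark cytokine of Th1 cells, signals through a receptor of its own to gamma-activated sites and induces a partly overlapping set of genes. T helper cells make such genes at a basal level and raise them on exposure to either interferon.

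Signals were deposited on a log2 scale, so a difference of 1 is a 2-fold change in signal, and levels of different probe sets are not compared. The median over all genes lay between 6.53 and 6.61 on the 8 arrays. The signal of Tet2 (gene ID 214133) was 8.14 and 8.02 (wild-type) and 8.12 and 7.98 (Tet2-deficient) on Th1 arrays and 8.51 and 8.49 (wild-type) and 8.34 and 8.39 (Tet2-deficient) on Th17 arrays. The genotypes overlapped in Th1 cells and differed by -0.14 ± 0.12 in Th17 cells, which limma did not call. Since the deleted exons are not stated, this probe set does not check the genotype labels. All 7 measured T cell markers were above the array median on every array. The summed linear signal of 10 Th1 markers was 13209 to 17577 on Th1 arrays and 2705 to 3240 on Th17 arrays, and that of 7 Th17 markers was 1007 to 1324 and 5552 to 7620. Each sum was higher in the subset its list names. Of the 10 Th1 genes, 9 in wild-type and 8 in Tet2-deficient cells were lower in Th17 than in Th1 cells. Il18r1 went the other way, and limma called it higher in Tet2-deficient Th17 than Th1 cells (0.87 ± 0.17, limma adjusted p = 0.00736). Xist, a transcript made in female cells, was at a log2 signal of 4.80 to 5.07 on the 4 Th1 arrays. On the Th17 arrays Xist stood at 5.15 and 10.07 (wild-type) and at 8.60 and 11.27 (Tet2-deficient).

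RefSeq promoters of assembly GRCm38.p6, each from 250 bases before to 50 bases after a start site, were found for 28 of the 38 members, which had 36 promoters between them. Usp18, Dhx58, Zbp1, Oas2, Mx1, Mx2, Rtp4, Parp9, Parp14 and Ifi27l2a had no entry. The core of the interferon-stimulated response element was searched on both strands as GAAA, any 2 bases and GAAA. It occurred in 13 of the 36 member promoters (36.1%), belonging to 12 genes, and in 1131 of all 32851 promoters (3.44%). The gamma-activated site, searched as TTCNNNGAA on both strands, occurred in 6 member promoters (16.7%) against 8.30% of all promoters. Copies of the core in one promoter may overlap each other, as in Isg15, Trim21 and Bst2, and in Bst2 the gamma-activated site overlaps the core. The stretches below show where the core lies in 2 members that were lower in Th17 than in Th1 cells (Oas3 and Trim30a) and in 4 that were not called (Stat2, Ifit1, Ifit3 and Rsad2). Each is written 5′ to 3′ on the strand of the gene with the core in capitals, and TTTC, any 2 bases and TTTC is the same core read on the opposite strand.
Oas3 (chr5:120777670-120777769, minus strand): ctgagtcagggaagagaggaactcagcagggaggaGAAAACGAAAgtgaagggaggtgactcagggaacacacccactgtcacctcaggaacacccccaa
Trim30a (chr7:104465194-104465273, minus strand): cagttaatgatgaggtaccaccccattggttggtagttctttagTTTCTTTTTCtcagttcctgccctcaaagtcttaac
Stat2 (chr10:128270248-128270347, plus strand): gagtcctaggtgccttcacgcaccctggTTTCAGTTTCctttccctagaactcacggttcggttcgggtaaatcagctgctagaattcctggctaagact
Ifit1 (chr19:34640750-34640849, plus strand): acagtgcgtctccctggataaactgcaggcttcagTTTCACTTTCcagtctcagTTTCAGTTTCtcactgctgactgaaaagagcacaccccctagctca
Ifit3 (chr19:34583338-34583437, plus strand): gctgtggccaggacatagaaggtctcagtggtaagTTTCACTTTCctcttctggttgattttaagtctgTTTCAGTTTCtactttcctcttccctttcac
Rsad2 (chr12:26456508-26456607, minus strand): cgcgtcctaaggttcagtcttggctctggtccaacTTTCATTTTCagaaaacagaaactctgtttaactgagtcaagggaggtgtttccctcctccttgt

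**Figure D1:**
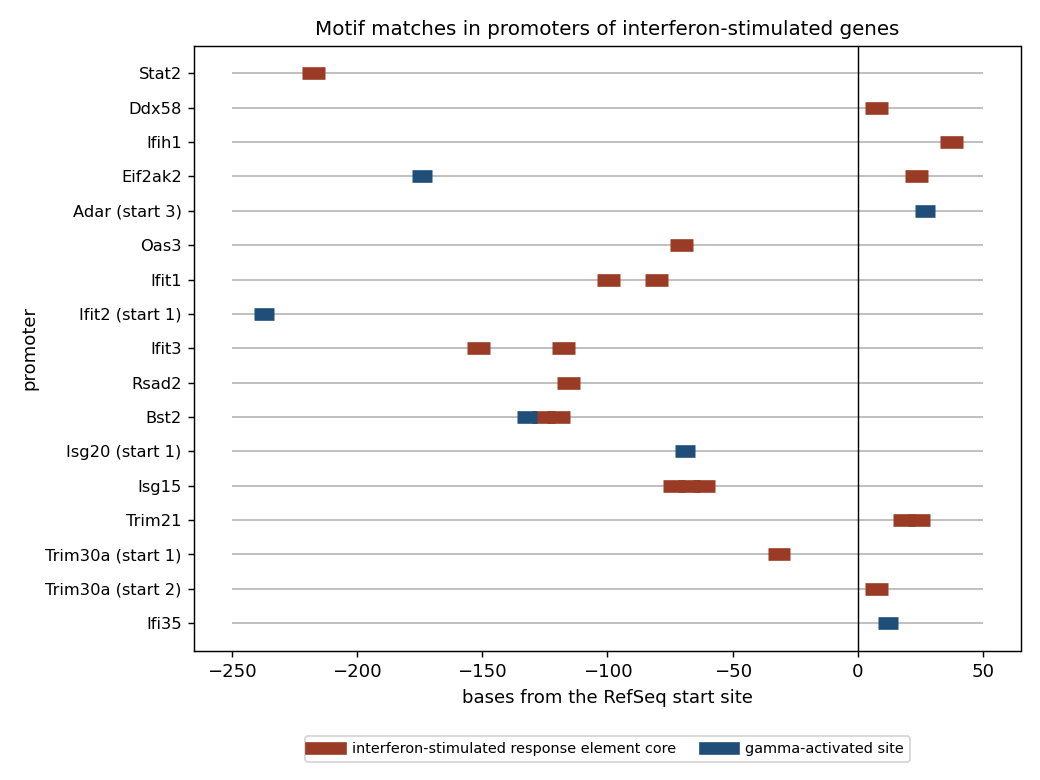
Positions of the interferon-stimulated response element core (red) and the gamma-activated site (blue) in the member promoters that held either; the x axis gives bases from the RefSeq start site, and each grey line is 1 promoter of 300 bases. The core lies upstream of the start in Stat2, Oas3, Ifit1, Ifit3, Rsad2, Bst2, Isg15 and the first Trim30a start, and just after a start in Ddx58, Ifih1, Eif2ak2, Trim21 and the second Trim30a start.

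Ifit1 and Ifit3 each hold 2 copies of the core, Oas3 and Rsad2 hold 1. Trim30a has separate windows at its 2 starts, with 1 match in each. Of the 10 members with a promoter that were lower in wild-type Th17 than Th1 cells, 4 held the core (40%), and of the 16 measured members with a promoter that were not called, 7 did (43.8%). The median number of CG dinucleotides, the sites at which Tet2 oxidizes methylated cytosine, was 6 per member promoter (range 0 to 34) and 7 over all promoters. The arrays give no reading of binding or methylation at these sequences.

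The first comparison asked how the subsets differ in wild-type cells. Of the 36 members, 13 were lower in Th17 than in Th1 cells and 0 were higher at a Benjamini-Hochberg adjusted p under 0.05 in limma. Over all genes, 8.4% were called, 3.44% lower and 4.97% higher. These shares are 990 higher and 685 lower, which became 1229 and 569 on centring each array on its median and 669 and 626 on a further quantile normalization. Below 0 were the differences of 30 members (55.1% of all genes) and above 0 those of 6 (44.9% of all genes), with a median of -0.36 against -0.03 over all genes. Both Th17 arrays lay under both Th1 arrays for 25 members (28.4% of all genes) and above both for 2, Ifit2 and Trim25 (23.8% of all genes). The 13 were the feedback inhibitor Usp18, the factor Irf9, the sensors Ifih1, Zbp1 and Eif2ak2, the synthetases Oas3 and Oasl2, the effectors Isg20, Cmpk2 and Samd9l, the ubiquitin ligase family member Trim30a, and Ifi27l2a and Xaf1. As in any bulk sample, fewer cells expressing a gene and less RNA per cell cannot be told apart.

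**Figure D2:**
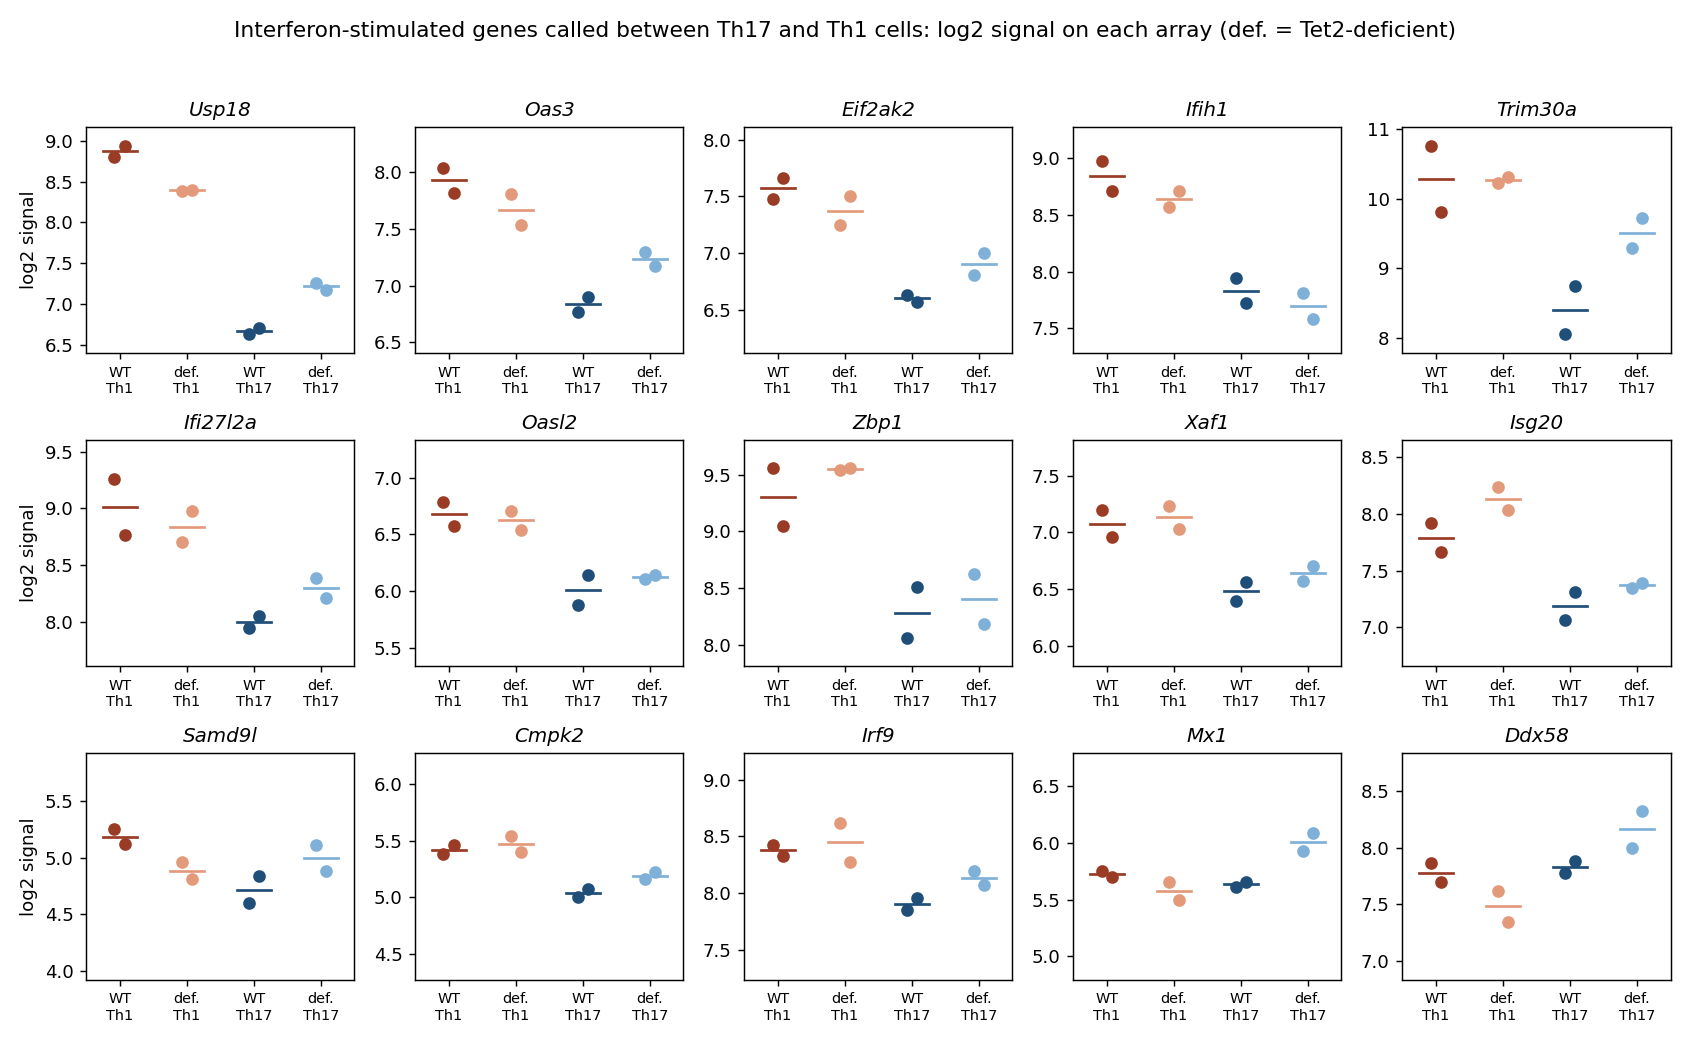
Log2 signal (y axis) on each array (point) of the 15 members called between Th17 and Th1 cells in either genotype, with the mean of the 2 arrays of a group as a line; panels have y axes of their own. Usp18 shows 4 separate levels, with wild-type Th1 at 8.81 and 8.94 and wild-type Th17 at 6.64 and 6.71, while Mx1 and Ddx58 are highest on the Tet2-deficient Th17 arrays.

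Among the factors of interferon signalling, Usp18, the protease that removes Isg15 from proteins and blocks the receptor from within (gene ID 24110, chr6:121245906-121270917 in GRCm38.p6), changed most. Its log2 signal was 8.81 and 8.94 (wild-type) and 8.39 and 8.40 (Tet2-deficient) on Th1 arrays and 6.64 and 6.71 (wild-type) and 7.26 and 7.17 (Tet2-deficient) on Th17 arrays. No pair of groups overlapped, and the 2 arrays of each group lay closer together than any pair of groups did. In wild-type cells Usp18 was 4.59-fold lower in Th17 (log2 fold change -2.20 ± 0.11 SE, n = 2 against 2 arrays, limma adjusted p = 2.17e-07). Irf9, the DNA-binding part of the Stat2 complex, read 8.43 and 8.32 in wild-type Th1 and 7.85 and 7.96 in wild-type Th17 cells, a difference of -0.47 ± 0.13 (adjusted p = 0.0496). That call was only just past the threshold. Stat2 differed by -0.58 ± 0.18 (adjusted p = 0.0612) and Irf7, the factor that amplifies interferon production, by -0.34 ± 0.16 (adjusted p = 0.226), neither past the threshold.

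Of the 6 sensors of nucleic acids, 3 fell in wild-type Th17 cells. Ifih1, the sensor of long double-stranded RNA known as MDA5, read 8.98 and 8.71 in wild-type Th1 and 7.94 and 7.72 in wild-type Th17 cells, 2.02-fold lower (-1.01 ± 0.14, adjusted p = 0.000738). For Zbp1, a sensor of Z-form nucleic acids that can trigger cell death, the values were 9.56 and 9.05 against 8.06 and 8.51 (-1.02 ± 0.20, adjusted p = 0.00747). Eif2ak2, the kinase PKR that halts translation on binding double-stranded RNA, was at 7.48 and 7.66 against 6.63 and 6.57 (-0.97 ± 0.13, adjusted p = 0.000567). In all of these, both Th17 arrays were below both Th1 arrays. Ddx58, the sensor RIG-I, and Adar, which edits double-stranded RNA, differed by 0.05 ± 0.14 and 0.05 ± 0.12. The related regulator Dhx58 had a difference of -0.49 ± 0.21 that did not pass (adjusted p = 0.177).

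The oligoadenylate synthetases make the short nucleotide chains that activate RNase L. Oas3 (gene ID 246727, chr5:120753098-120777684), whose promoter stretch is shown above, read 8.04 and 7.82 in wild-type Th1 and 6.77 and 6.90 in wild-type Th17 cells, 2.14-fold lower (-1.10 ± 0.13, adjusted p = 0.000264). Oasl2 read 6.79 and 6.57 against 5.88 and 6.14 (-0.67 ± 0.13, adjusted p = 0.00666). Oas2 and Oasl1 differed by -0.18 ± 0.11 and -0.12 ± 0.14 and were not called, so 2 of the 4 measured synthetases fell.

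The Ifit genes, which are among the strongest targets of type I interferon, were not called in any comparison. In wild-type cells their differences were -0.32 ± 0.16 for Ifit1, 0.08 ± 0.11 for Ifit2 and -0.28 ± 0.16 for Ifit3. The Mx GTPases, which trap viral nucleocapsids, were not called in wild-type cells either, with -0.09 ± 0.11 for Mx1 and -0.41 ± 0.16 for Mx2. These 5 and Rsad2 are often used as markers of an interferon response, and whether such a response occurred in these cells was not tested. Ifit2, Ifit3, Mx1, Mx2 and Rsad2 lay under the array median on all 8 arrays, together with Oas2, Cmpk2, Samd9l and Rtp4. Another 22 members lay above it on all 8 arrays, and 5 (Irf7, Dhx58, Oasl2, Ifit1 and Xaf1) fell on both sides.

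Of the 6 other direct effectors, 3 fell in wild-type Th17 cells. Isg20, an exonuclease of RNA, read 7.92 and 7.66 in wild-type Th1 and 7.07 and 7.31 in wild-type Th17 cells (-0.60 ± 0.13, adjusted p = 0.0173). The levels of Samd9l, an inhibitor of translation and growth, were 5.25 and 5.12 against 4.60 and 4.84 (-0.47 ± 0.13, adjusted p = 0.0382), and those of Cmpk2, a mitochondrial nucleotide kinase, 5.38 and 5.46 against 5.01 and 5.07 (-0.38 ± 0.11, adjusted p = 0.0455). The last 2 had small changes at low signal. Rsad2, the antiviral enzyme viperin and chromosomal neighbour of Cmpk2, had a difference of -0.33 ± 0.10 that did not pass (adjusted p = 0.0681), and Bst2, which tethers budding virus, and Rtp4 were not called.

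Among the ubiquitin and ADP-ribose enzymes only Trim30a was called, of 7 measured. Trim30a (gene ID 20128, chr7:104409025-104465193), a Trim family protein that restrains innate signalling, read 10.76 and 9.81 (wild-type) and 10.23 and 10.32 (Tet2-deficient) on Th1 arrays and 8.06 and 8.75 (wild-type) and 9.29 and 9.72 (Tet2-deficient) on Th17 arrays. The subsets did not overlap in either genotype, and the 2 wild-type Th1 arrays differed by 0.95, the widest replicate gap of any member in that group. It was 3.68-fold lower in wild-type Th17 cells (-1.88 ± 0.28, adjusted p = 0.00114). Genes of the same family lie beside it, and signal shared between their probes was not tested. Herc6, the mouse ligase that attaches Isg15, had -0.49 ± 0.14 (adjusted p = 0.0542), and Trim21, Trim25, Dtx3l, Parp9 and Parp14 ranged from -0.41 to 0.19 without a call.

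Of the other induced genes, Ifi27l2a, a small mitochondrial protein, read 9.26 and 8.77 in wild-type Th1 and 7.95 and 8.05 in wild-type Th17 cells, 2.02-fold lower (-1.02 ± 0.16, adjusted p = 0.00227). Xaf1, a promoter of apoptosis, was at 7.20 and 6.96 against 6.40 and 6.56 (-0.60 ± 0.13, adjusted p = 0.0134). The nuclear body protein Sp100 and Ifi35 differed by 0.03 ± 0.14 and 0.09 ± 0.18.

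Usp18, Ifih1, Eif2ak2, Oas3, Trim30a and Ifi27l2a were called in each of the 18 alternative fits that tested every member. Leaving out wild-type Th1 replicate 1 left 6 members called, as did leaving out wild-type Th17 replicate 1, and each ended the calls of Oasl2, Zbp1, Xaf1, Isg20, Samd9l, Cmpk2 and Irf9. Over all genes the calls in these fits were 529 higher and 500 lower, and 598 higher and 545 lower. Without wild-type Th1 replicate 2 or wild-type Th17 replicate 2, Samd9l, Cmpk2 and Irf9 lost theirs; without either Tet2-deficient Th17 array Cmpk2 and Irf9 did, and without either Tet2-deficient Th1 array Cmpk2 did. Samd9l, Cmpk2 and Irf9 also lost their calls with array weights, with the wild-type arrays fitted alone, and with the share of female RNA, defined further on from Xist, as a covariate. Cmpk2 was called in 3 of 18 alternatives and Irf9 in 7 of 19. Wild-type Th1 replicate 1 held the highest value of 16 members (14.4% of all genes) and wild-type Th17 replicate 1 the lowest value of 20 (11.9% of all genes). In wild-type Th1 cells replicate 1 was above replicate 2 for 27 of 36 members (46.1% of all genes), by a median of 0.23.

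**Figure D3:**
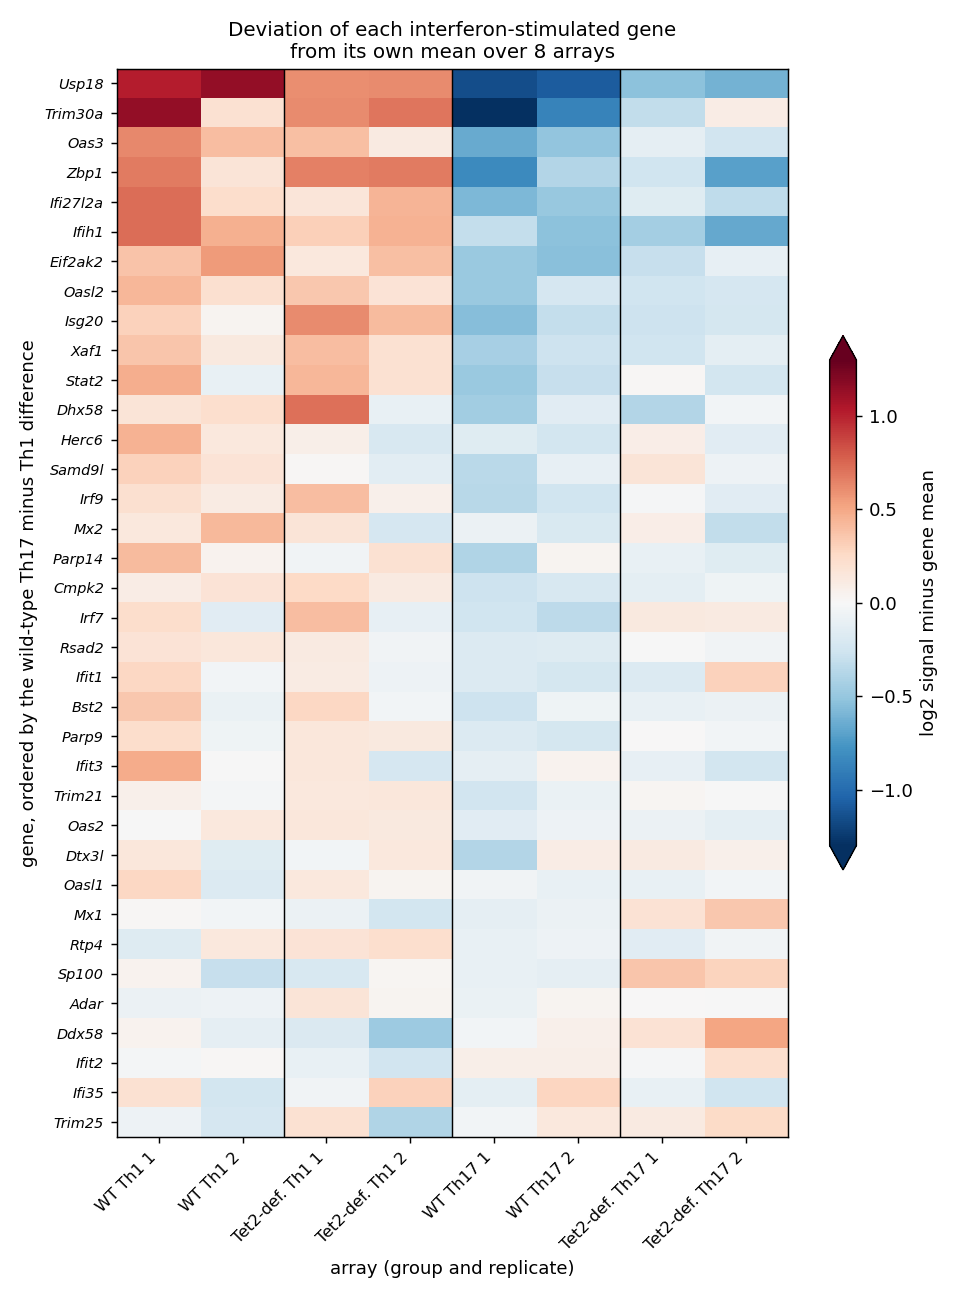
Each row is 1 of the 36 measured members, ordered by the wild-type Th17 minus Th1 difference, and each column 1 array; colour gives the log2 signal minus the gene's own mean over the 8 arrays. The upper rows are red on Th1 and blue on Th17 arrays, wild-type Th1 replicate 1 holds the highest value of 16 members and wild-type Th17 replicate 1 the lowest of 20, and the lower rows (Sp100, Ddx58, Mx1) are red mainly on the Tet2-deficient Th17 arrays.

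Markers of other cell types were compared between the same arrays. The summed linear signal of 12 dendritic cell and macrophage genes was 858 to 1157 on Th1 and 708 to 758 on Th17 arrays, with 2 of the 12, Cd68 and H2-Ab1, above the array median on each array. H2-Ab1, a class II antigen-presenting gene, differed between Th17 and Th1 cells by -0.84 ± 0.25 (wild-type, adjusted p = 0.0538) and -1.22 ± 0.25 (Tet2-deficient, adjusted p = 0.00764). For 6 plasmacytoid dendritic cell genes, which include the member Bst2, the sums were 811 to 883 and 749.7 to 799, and for 6 natural killer cell genes 442 to 462 and 277 to 457. The sums of B cell markers (206 to 228 on Th1, 196 to 217 on Th17 arrays) and neutrophil markers (360.1 to 401 and 354 to 386) overlapped between the subsets, and none of the neutrophil genes was above the array median on any array. The part of these cells in the subset differences was not tested.

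The same comparison in Tet2-deficient cells called 9 members, 7 lower and 2 higher in Th17 cells, where 10.1% of all genes were called, 3.79% lower and 6.32% higher. Centring each array on its median turned the split over all genes from 1260 higher and 755 lower to 1598 and 604, and a further quantile normalization turned it to 906 and 726. Differences below 0 were found for 27 members (55.7% of all genes), and the median was -0.20 against -0.03 over all genes. Both Th17 arrays lay under both Th1 arrays for 22 members (31.7% of all genes) and above both for 4, Ddx58, Ifit2, Mx1 and Sp100 (25.8% of all genes). The 7 that fell were Usp18 (-1.18 ± 0.11, adjusted p = 3.78e-05), Zbp1 (-1.15 ± 0.20), Ifih1 (-0.94 ± 0.14), Isg20 (-0.77 ± 0.13), Oasl2 (-0.50 ± 0.13), Xaf1 (-0.49 ± 0.13) and Eif2ak2 (-0.47 ± 0.13), with adjusted p from 3.78e-05 to 0.0371. These 7 had also fallen in wild-type cells and made up 53.8% of the 13 called there and 77.8% of the 9 called here.

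Isg20 read 8.24 and 8.03 in Tet2-deficient Th1 and 7.35 and 7.39 in Tet2-deficient Th17 cells. Zbp1 was at 9.54 and 9.56 against 8.62 and 8.18, and Ifih1 at 8.57 and 8.71 against 7.81 and 7.58. In each of the 3 the Th17 arrays lay below the Th1 arrays without overlap, as in wild-type cells. The change of the gap with genotype had 95% intervals of -0.58 to 0.25 for Isg20, -0.73 to 0.48 for Zbp1 and -0.36 to 0.50 for Ifih1 (limma adjusted p = 0.999 for each).

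Among Tet2-deficient cells, the members called higher in Th17 than in Th1 cells were Ddx58, the sensor RIG-I, and Mx1. Ddx58 read 7.86 and 7.70 (wild-type) and 7.62 and 7.34 (Tet2-deficient) on Th1 arrays and 7.78 and 7.88 (wild-type) and 7.998 and 8.32 (Tet2-deficient) on Th17 arrays. In Tet2-deficient cells it was 1.60-fold higher in Th17 than in Th1 (0.68 ± 0.14, adjusted p = 0.0100), with no overlap, while in wild-type cells the subsets overlapped. Mx1 read 5.75 and 5.70, 5.66 and 5.50, 5.62 and 5.66, and 5.93 and 6.09 in the same order of groups, and was 1.35-fold higher (0.43 ± 0.11, adjusted p = 0.0268). Its signal stayed below the array median, and both genes reached their highest values on the Tet2-deficient Th17 arrays.

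Called in wild-type but not in Tet2-deficient cells were Oas3 (-0.44 ± 0.13, adjusted p = 0.0553), Trim30a (-0.77 ± 0.28, adjusted p = 0.103), Ifi27l2a (-0.54 ± 0.16, adjusted p = 0.0549), Irf9 (-0.31 ± 0.13, adjusted p = 0.168), Cmpk2 (-0.28 ± 0.11, adjusted p = 0.126) and Samd9l (0.11 ± 0.13, adjusted p = 0.624), the values being those in Tet2-deficient cells. Without Tet2, Oas3 read 7.80 and 7.54 on Th1 arrays against 7.30 and 7.17 on Th17 arrays, so its subsets still did not overlap. The tests of the difference between genotypes, given further on, called none of them. Across the 36 members the subset differences of the genotypes, which share no array, had a Pearson correlation of 0.78 and a Spearman correlation of 0.76, and 29 had the same sign. Over all genes the Pearson correlation was 0.81 and the Spearman correlation 0.67, and 14856 of 19938 had the same sign. The points of either scale share their arrays and normalization.

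**Figure D4:**
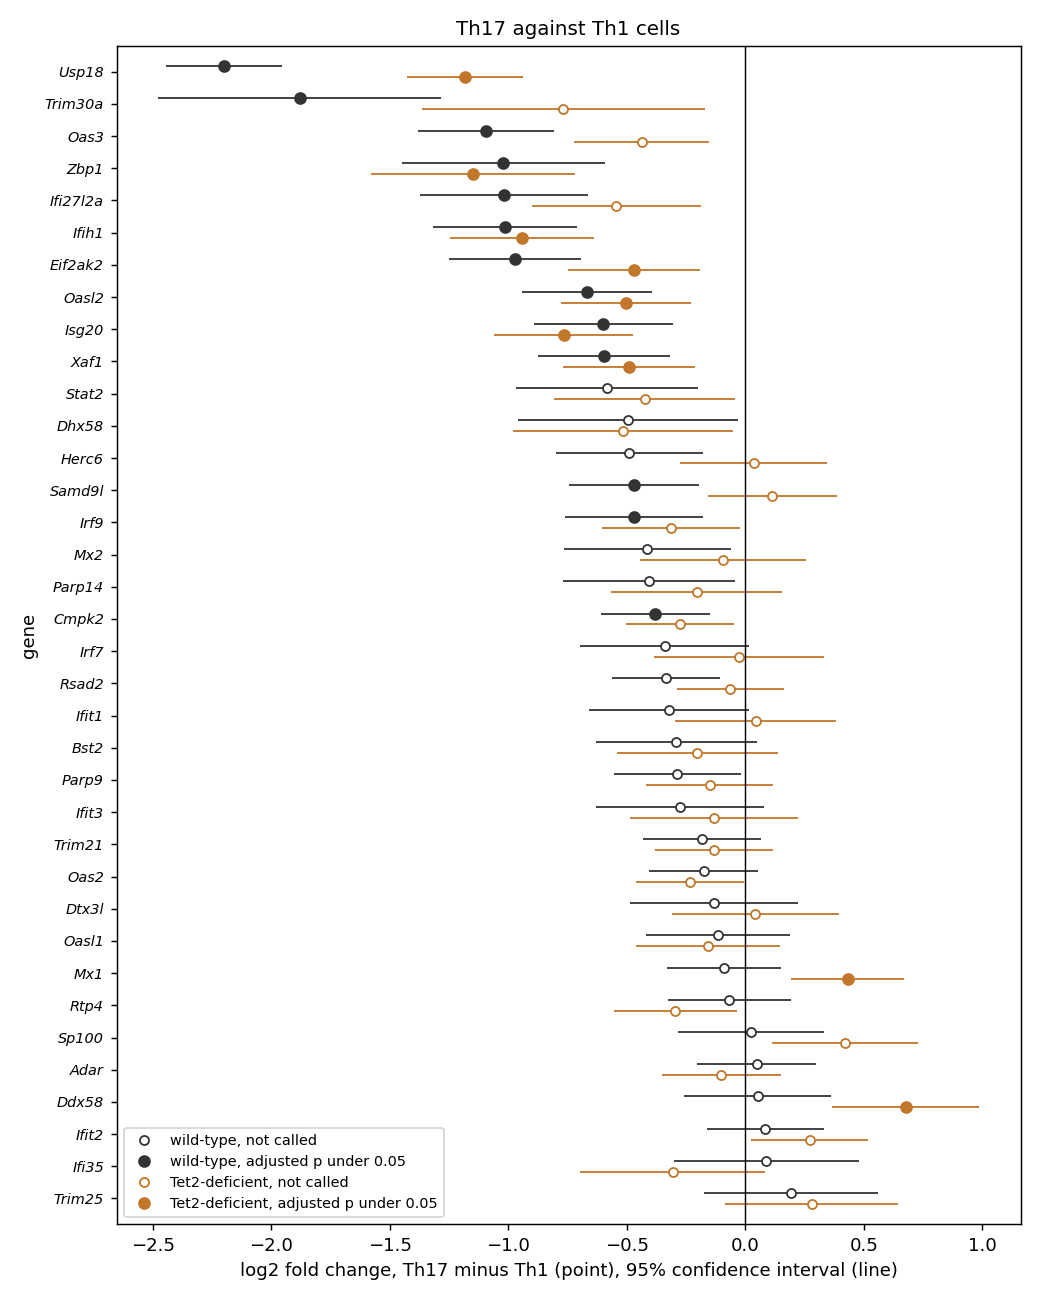
Log2 fold change of Th17 against Th1 cells (x axis) for the 36 measured members (y axis), in wild-type (black) and Tet2-deficient (orange) cells; points are estimates, lines 95% confidence intervals from limma, and filled points were called at an adjusted p under 0.05. Usp18 lies at -2.20 in wild-type and -1.18 in Tet2-deficient cells with intervals that do not overlap, and Mx1 and Ddx58 lie above 0 in Tet2-deficient cells. The direct limma test of the difference between genotypes did not call Usp18 or any other member.

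Usp18, Ifih1 and Isg20 were called in Tet2-deficient cells in each of the 18 alternative fits that tested every member. The count of lower members was 4 without either Tet2-deficient Th17 array, and the count of higher members was 0 without Tet2-deficient Th1 replicate 2 or Th17 replicate 2 and 1 without the other array of each group. Calls over all genes fell too, to 498 higher and 303 lower without Tet2-deficient Th17 replicate 1 and to 725 and 378 without replicate 2. They were 602 and 331 without Tet2-deficient Th1 replicate 1 and 732 and 472 without replicate 2. Mx1 and Oasl2 lost their calls on leaving out any one of the 4 Tet2-deficient arrays, Eif2ak2 on leaving out any but Th1 replicate 1, Xaf1 any but Th1 replicate 2, and Ddx58 without Tet2-deficient Th1 replicate 2 or Th17 replicate 2. The linear Xist signal above the Th1 mean was 14.7% and 100% of that of the highest array on the Tet2-deficient Th17 arrays, and 0.187% and 42.9% on the wild-type ones. With that share as a covariate, 3 members were called lower and 0 higher, and calls over all genes fell to 497 higher and 229 lower.

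The second comparison asked how Tet2-deficient Th1 cells differed from wild-type Th1 cells. None of the 36 members was called by limma, where 0.00502% of all genes were called, a single gene. With an unadjusted p under 0.05 there were 4 members (6.05% of all genes). Usp18, Samd9l and Herc6 had lower signal in Tet2-deficient cells (2.84% of all genes) and Isg20 had higher signal (3.2% of all genes). Differences were above 0 for 18 members (54.1% of all genes) and below 0 for 18 (45.9% of all genes), with a median of 0.01, the same as over all genes. Both Tet2-deficient arrays lay above both wild-type arrays for 4 members (19.6% of all genes) and below them for 9 (13.7% of all genes). Usp18 had the smallest p, with a difference of -0.47 ± 0.11 (95% interval -0.72 to -0.23, adjusted p = 0.797). For Isg20, Herc6 and Samd9l the differences were 0.35 ± 0.13, -0.36 ± 0.14 and -0.30 ± 0.13, with adjusted p from 0.804 to 0.816. Herc6 read 7.55 and 7.24 with Tet2 and 7.17 and 6.89 without it.

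The gene called in Th1 cells was Ifng, which encodes interferon-gamma and is not a member. Its log2 signal was 11.55 and 11.84 (wild-type) and 10.43 and 10.18 (Tet2-deficient) on Th1 arrays and 6.03 and 5.97 (wild-type) and 5.92 and 5.99 (Tet2-deficient) on Th17 arrays. The difference in Th1 cells was -1.39 ± 0.14 (adjusted p = 0.00438).

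In Th17 cells the question was the same, and again 0 members were called by limma, as were 0% of all genes. Members with an unadjusted p under 0.05 numbered 9 (4.13% of all genes), and all 9 had higher signal in Tet2-deficient cells (2.6% of all genes), while 0 had lower signal (1.53% of all genes). The differences of 32 members were above 0, as were those of 54.4% of all genes, with a median of 0.16 against 0.01 over all genes. Both Tet2-deficient arrays lay above both wild-type arrays for 20 members (18.8% of all genes) and below for 0 (14.1% of all genes). The 4 members below 0 (45.6% of all genes) were Ifi35, Ifih1, Ifit3 and Rtp4. Leaving out wild-type Th17 replicate 1, the array with the lowest value of 20 members, brought the median to 0.08, and leaving out replicate 2 brought it to 0.25. Xist also differed between these Th17 arrays, as given above. Eif2s3y, another marker of the sex of the RNA, read 9.65 and 8.46 (wild-type) and 9.36 and 4.33 (Tet2-deficient) on them. When the Xist-based share given above was added to the model, the 6 members of smallest p kept their direction. In that model 0 of all genes were called higher and 0 lower between these genotypes. Beyond this fit, the part of the sex of the RNA in the members' differences was not tested.

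Usp18 again had the smallest p, with a difference of 0.54 ± 0.11 (95% interval 0.30 to 0.79, adjusted p = 0.546). Trim30a showed the greatest difference, 1.10 ± 0.28 (95% interval 0.50 to 1.70, adjusted p = 0.743), and ranged from 0.76 to 1.44 over the alternatives. Its neighbours Trim12a and Trim30d, named after their values were seen, differed widely between arrays of one group. Trim12a read 7.08 and 5.07 (wild-type) and 6.23 and 7.53 (Tet2-deficient) on Th1 arrays and 4.53 and 6.46 (wild-type) and 6.58 and 7.49 (Tet2-deficient) on Th17 arrays, and Trim30d read 7.04 and 4.57, 6.11 and 6.74, 4.29 and 5.20, and 5.28 and 5.90. Within each group the array with the higher Trim12a signal also had the higher Trim30d and Trim30a signal. Whether the Trim30a difference shares this source of spread was not tested.

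The other 7 members with an unadjusted p under 0.05 had differences of 0.28 to 0.43. Sp100 read 9.60 and 9.58 on the wild-type arrays against 10.06 and 9.99 on those without Tet2 (0.43 ± 0.14, adjusted p = 0.959). Its Th1 arrays, at 9.73 and 9.39 with Tet2 and 9.48 and 9.72 without it, overlapped. Irf7 read 6.27 and 6.19 against 6.65 and 6.64 (0.42 ± 0.16), and Oas3 6.77 and 6.90 against 7.30 and 7.17 (0.40 ± 0.13, adjusted p = 0.983). Mx1 had 0.37 ± 0.11 (adjusted p = 0.812), and Ddx58, Eif2ak2 and Samd9l had 0.33, 0.31 and 0.28. These 7 were picked by their p on these same arrays, and none of the 7 passed the adjusted threshold.

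**Figure D5:**
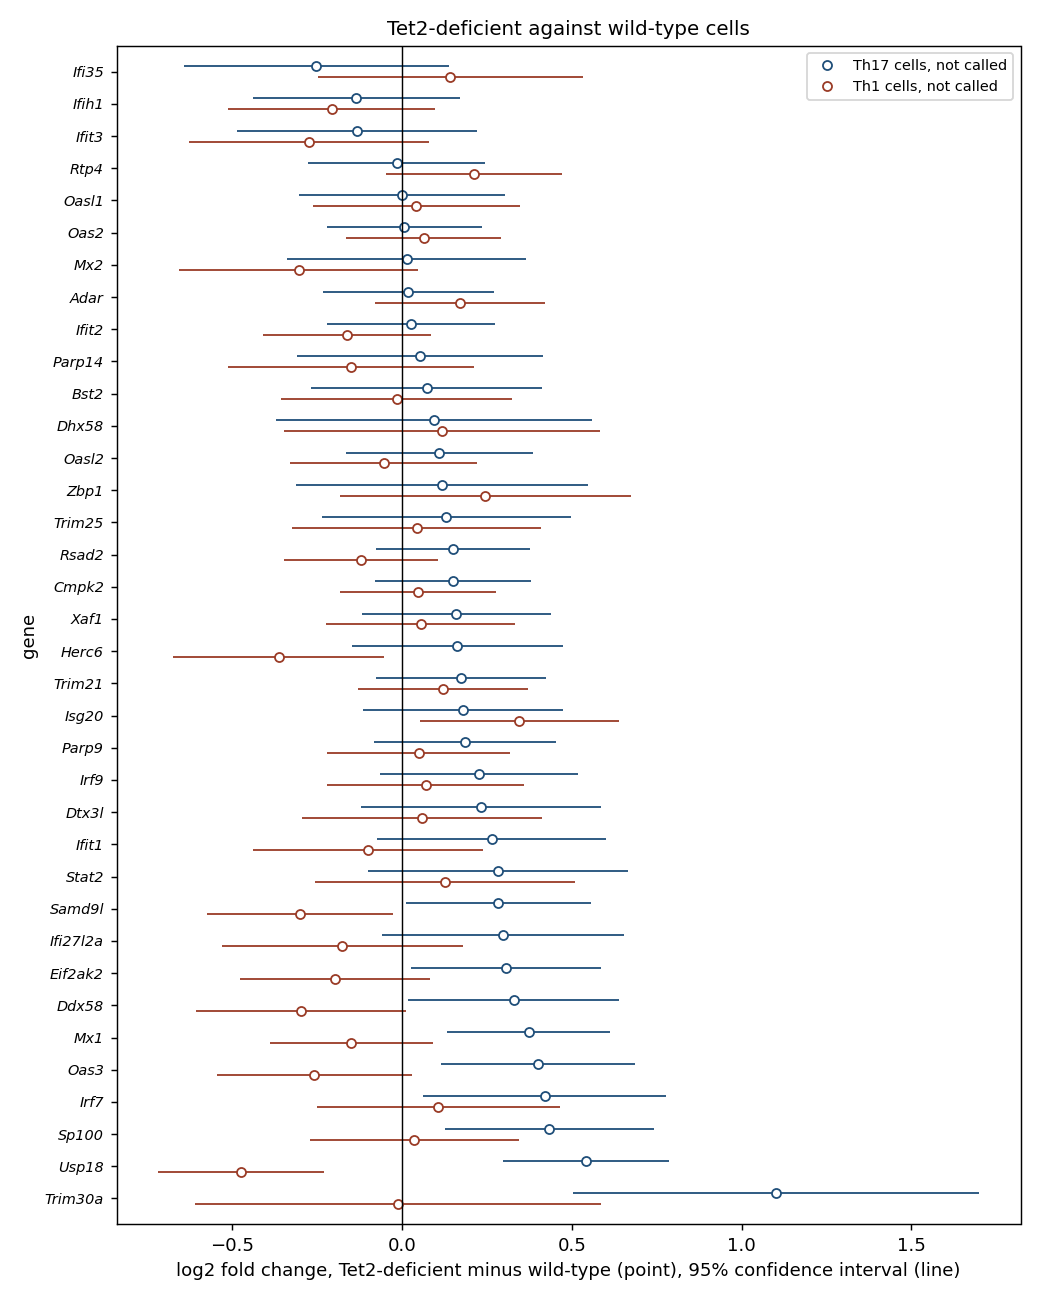
Log2 fold change of Tet2-deficient against wild-type cells (x axis) for the 36 measured members (y axis), in Th17 (blue) and Th1 (red) cells; points are estimates and lines 95% confidence intervals from limma, and no point passed an adjusted p of 0.05. In Th17 cells 32 of 36 points lie above 0, up to 1.10 for Trim30a, and in Th1 cells 18 do, with Usp18 lowest at -0.47.

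Averaged over the subsets, the differences of Tet2-deficient from wild-type cells were above 0 for 28 members (55.1% of all genes) and below 0 for 8 (44.9% of all genes). Their median was 0.08 (0.037 to 0.11 on leaving out each array), with 0 limma calls (0% of all genes). An unadjusted p under 0.05 (5.48% of all genes) was found for 4 members, Trim30a, Isg20, Sp100 and Irf7, all with higher signal (3.48% of all genes). The Th17 effect minus the Th1 effect was above 0 for 28 members (50% of all genes), with a median of 0.16 and 0 limma calls (0% of all genes). For 8 the unadjusted p was under 0.05 (4.48% of all genes), all above 0 (2.58% of all genes) and 0 below (1.9% of all genes). Usp18 had the smallest p, with a difference of effects of 1.02 ± 0.16 (95% interval 0.67 to 1.36, adjusted p = 0.202, and 0.147 to 0.729 over the alternatives). On its arrays this is the narrowing of the gap between subsets from -2.20 to -1.18, with the Th1 arrays lower and the Th17 arrays higher in Tet2-deficient cells. Oas3 had 0.66 ± 0.19, Ddx58 0.63 ± 0.20, Samd9l 0.58 ± 0.18, Mx1 0.52 ± 0.16 and Trim30a 1.11 ± 0.39, each with an adjusted p of 0.999. Eif2ak2 and Herc6 were the other two, at 0.50 and 0.53. Across members the effects in the subsets, which share no array, had a Pearson correlation of -0.16, and 18 of 36 had the same sign. Over all genes the Pearson correlation of these effects was 0.06, and 10436 of 19938 had the same sign.

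Upstream in the pathway, 2 of 9 genes for the receptor and its signalling were called between the wild-type subsets and 3 between the Tet2-deficient ones. For the induction of interferon it was 2 of 14 in each, and for the interferons 1 and 2 of 16, where 8.4% and 10.1% of all genes were called. Of the 9 measured genes for the receptor and its signalling, Jak1 was higher in Th17 cells in both genotypes (0.50 ± 0.13, adjusted p = 0.0310 in wild-type, and 0.74 ± 0.13, adjusted p = 0.00303 in Tet2-deficient cells), and the phosphatase gene Ptpn6 was lower in both (-0.46 ± 0.13 and -0.56 ± 0.13). Pias1 was called in Tet2-deficient cells (0.51 ± 0.11). Ifnar2, a receptor chain, had 0.41 ± 0.13 and 0.36 ± 0.13 (adjusted p = 0.0690 and 0.0988), and Ifnar1 0.14 ± 0.12 and 0.35 ± 0.12. Of 14 genes for the induction of interferon, the kinase gene Ikbke was higher in both genotypes (0.57 ± 0.12 in each), while Trex1 fell in wild-type (-0.46 ± 0.13) and Samhd1 in Tet2-deficient cells (-0.47 ± 0.13). Their values in the other genotype were -0.43 and -0.41 without a call. Of 16 interferon genes, Ifng was lower in Th17 cells in both genotypes (-5.69 ± 0.14 and -4.35 ± 0.14), and Ifna4 in Tet2-deficient cells (-0.39 ± 0.11) at signals of 5.01 to 5.57.

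A longer list of other interferon-stimulated genes had 59 measured. Of these, 17 were lower (3.44% of all genes) and 2 higher (4.97%) in wild-type Th17 than Th1 cells, with a median of -0.25. In Tet2-deficient cells 18 were lower (3.79% of all genes) and 4 higher (6.32%), with a median of -0.15. Ms4a4c (-1.92 ± 0.21 and -2.03 ± 0.21), Ms4a4b, Gm4951 and the antigen transporter Tap1 (-1.41 and -1.52) were among those that fell in both, and Ly6e rose in both (0.75 ± 0.13 and 1.01 ± 0.13). A further list held interferon-gamma inducible GTPases, Irf genes and Ciita, with 14 measured. Of these, 9 were lower in wild-type Th17 cells (3.44% of all genes) and 10 in Tet2-deficient ones (3.79% of all genes), with medians of -0.97 and -1.47. Iigp1, a GTPase that attacks parasite vacuoles, read 9.01 and 8.68 (wild-type) and 8.77 and 9.55 (Tet2-deficient) on Th1 arrays and 5.38 and 5.26 (wild-type) and 5.10 and 5.22 (Tet2-deficient) on Th17 arrays. The factor Irf1 was lower in Th17 cells in both (-1.06 ± 0.19 and -1.77 ± 0.19). None of the genes on these lists was called between genotypes except Ifng in Th1 cells.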

How the data were processed

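The authors deposited log2 probe-set signals of 8 arrays. The normalization was RMA, with Expression Console and GCOS also listed, per the submitters' processing notes, which give no version or option here. Signals carry no counting depth, so the number of arrays limits precision. The platform annotation gave 21789 of 35556 probe sets a single symbol, and the probe set of highest mean was kept per symbol, which left 19938 genes without a filter. Limma 3.58.1 (R 4.3.3) was fitted to 4 group means with a trended eBayes (4 residual and 8.32 prior degrees of freedom), with two-sided tests adjusted over all genes by the Benjamini-Hochberg method. On simulated data for wild-type Th17 against Th1, 72.8% of genes changed 1.5-fold and 99.7% of those changed 2-fold were found, and 7.25% of calls were false. The simulation had 10 runs with 200 genes changed per simulation. The real comparison called 1675 genes, so these shares need not hold for it. Values after ± are standard errors. The members, lists, covariates and motifs were chosen with earlier results of these data known. Every measured member could be named; array values were given for those called or of smallest p in a comparison. Alternatives were a replicate block, other probe-set, scaling, filter and variance settings, array weights, a female share covariate, fits on the compared groups alone, and leaving out each array.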

Additional observations from a re-analysis of the deposited data

How the results depend on the processing

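The members called between subsets, and the 6 of smallest p in each genotype comparison, kept their direction under every alternative run for them, and no member was called between genotypes; members with differences near 0 were not followed gene by gene, and the causes of the changes that follow were not tested. With only genes at or above the median level tested, fewer members remain, and the members' median for Th17 against Th1 was -0.47 with and -0.31 without Tet2, with 1 member called higher in Tet2-deficient cells. With the female share as a covariate, 0 members were called higher and 3 lower in Tet2-deficient cells. Leaving out each array in turn gave 6 to 12 members lower and a median of -0.49 to -0.27 in wild-type cells. In Tet2-deficient cells it gave 0 to 3 higher, 4 to 10 lower and a median of -0.28 to -0.14. For Tet2-deficient against wild-type cells the median ranged from -0.14 to 0.064 in Th1, from 0.084 to 0.25 in Th17, from 0.037 to 0.11 for their mean and from 0.038 to 0.28 for their difference; in Th1 cells its sign thus depends on the arrays used. Over all genes, calls between the wild-type subsets fell from 990 higher and 685 lower to 402 and 261 without wild-type Th17 replicate 2.

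No label pairs the arrays across groups. The replicate 1 minus replicate 2 differences of the groups correlated across genes at -0.19 to 0.06. With a single such difference per group, this cannot show whether arrays were paired, in the same or the swapped order. With a replicate block 12 members were lower in wild-type Th17 than Th1 cells, where 794 of all genes were called higher and 604 lower. Of the 13, 11 kept their call, Cmpk2 and Irf9 lost it, and another member gained one. In the same fit 7 were lower and 2 higher in Th17 than Th1 among Tet2-deficient cells. Over all genes 1081 were called higher there and 686 lower.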

Other observations

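The spread within groups was uneven over the cluster of Trim genes on chromosome 7. Of the 21 measured genes in the window of 250 kb to each side of Trim30a, itself included, Trim12a differed between the 2 wild-type Th1 arrays by the values 7.08 and 5.07 and Trim30d by 7.04 and 4.57, while Trim34a stood at 7.52 and 6.94 and Trim12c, in the opposite order, at 6.505 and 7.10.

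Klrd1, a natural killer receptor gene, was higher in Th17 than in Th1 cells with Tet2 deficiency (1.73 ± 0.20, limma adjusted p = 0.000207). On the Th1 arrays it read 5.94 and 5.70 (wild-type) and 5.89 and 5.97 (Tet2-deficient), and on the Th17 arrays 6.30 and 6.51 (wild-type) and 7.25 and 8.07 (Tet2-deficient). It was chosen after its values were seen, and the other natural killer genes did not follow it: of the 6, 3 were above and 3 below 0 in this comparison, with a median of -0.0057, and Eomes was lower (-1.40 ± 0.13, adjusted p = 3.78e-05).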
